A study of Mus musculus with 16 samples.

Results

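BMP signalling in bone is set by secreted ligands, by antagonists that bind them, by receptors and by the transcriptional targets that answer them. The 8 genes described here cover these roles, out of 32285 genes counted: the ligands Bmp2 and Bmp4, the antagonist Grem1, the decoy receptor Bambi, the type I receptor Bmpr1a and the targets Id1, Id2 and Id3. They were listed by name, with earlier results of these data known, and all 8 were found in every count matrix.

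The data were single-cell RNA-Seq counts from differentiated cultures of mouse bone marrow stromal cells (BMSCs), taken at day 21 in medium with 10 mM beta-glycerophosphate and ascorbic acid. Donor mice were 12 weeks old and on the C57BL/6J background, and every genotype carried homozygous floxed Fgf23 alleles (Fgf23 fl/fl). WT mice had intact Dmp1 and no Cre, and Fgf23cKO mice had intact Dmp1 and a Cre transgene driven by the Dmp1 promoter, which removes exon 1 of Fgf23 in late osteoblasts and osteocytes only. Dmp1KO mice lacked Dmp1 globally (Dmp1-/-) and had no Cre, and Dmp1KO/Fgf23cKO mice combined Dmp1-/- with the Cre transgene. The study asked which cells in these cultures respond to loss of Dmp1, the gene of an extracellular matrix phosphoprotein, and to the hormone FGF23 made by osteocytes.

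BMP dimers bind a complex of type I and type II serine/threonine kinase receptors, and the type I receptor then phosphorylates SMAD1, SMAD5 and SMAD9, which enter the nucleus with SMAD4. The ID genes are among the most direct targets of these SMADs and code for helix-loop-helix proteins that cannot bind DNA and hold back other helix-loop-helix factors. Gremlin 1, the product of Grem1, binds BMP2 and BMP4 outside the cell, and BAMBI resembles a type I receptor but lacks the kinase. In bone, BMP2 and BMP4 drive the osteoblast fate of stromal cells, and in macrophages ID proteins are also set by cytokines and other signals.

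Of 16 samples listed, 15 were analysed, with 17793 cells. The tests used 11 tagged cultures, 3 each of WT, Fgf23cKO and Dmp1KO/Fgf23cKO and 2 of Dmp1KO, with 470 to 2825 cells and 9518928 to 72482185 transcript counts (UMIs, unique molecular identifiers) each. A further sample of each genotype held cells without a clear tag from the same pool, and these 4 samples entered the clustering but not the tests. At most 6 cell barcodes were shared by a pair of samples. Each genotype was run in its own 10x reaction, which means that a genotype difference and a reaction difference cannot be told apart here, and the median UMIs per tagged cell were 7194 in WT, 32509 in Fgf23cKO, 21173 in Dmp1KO and 33199 in Dmp1KO/Fgf23cKO. Dmp1 stood at 27.3 to 108 CPM (UMIs per 1000000 UMIs) in WT cultures, 7.55 to 65.0 CPM in Fgf23cKO, 0 to 0.0477 CPM in Dmp1KO and 1.32 to 2.16 CPM in Dmp1KO/Fgf23cKO. Fgf23 had at most 8 UMIs in a tagged culture and could not check the labels.

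The promoters of Id3, Id2 and Grem1 are shown as those of a pair of ID targets and of the antagonist, from the 5 of the 8 genes for which RefSeq stretches were at hand. Each stretch is the 250 bases before the RefSeq transcription start on GRCm38.p6, on the gene's own strand. Id3 lies at chr4:136143572-136143821 on the plus strand, Id2 at chr12:25096093-25096342 on the minus strand and Grem1 at chr2:113758649-113758898 on the minus strand. Capitals mark GGCGCC, a GC-rich element bound by SMAD1 and SMAD5, and GTCT or its reverse complement AGAC, the element bound by SMAD4.
Id3: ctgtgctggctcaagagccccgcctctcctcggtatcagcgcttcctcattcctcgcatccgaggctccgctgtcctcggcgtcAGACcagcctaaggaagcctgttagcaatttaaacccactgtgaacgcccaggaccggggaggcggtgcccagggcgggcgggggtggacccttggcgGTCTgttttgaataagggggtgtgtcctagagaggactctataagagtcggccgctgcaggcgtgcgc
Id2: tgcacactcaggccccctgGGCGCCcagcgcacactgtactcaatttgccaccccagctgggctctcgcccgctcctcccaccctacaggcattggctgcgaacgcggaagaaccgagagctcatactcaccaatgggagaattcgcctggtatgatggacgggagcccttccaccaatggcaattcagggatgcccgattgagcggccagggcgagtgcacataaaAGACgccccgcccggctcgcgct
Grem1: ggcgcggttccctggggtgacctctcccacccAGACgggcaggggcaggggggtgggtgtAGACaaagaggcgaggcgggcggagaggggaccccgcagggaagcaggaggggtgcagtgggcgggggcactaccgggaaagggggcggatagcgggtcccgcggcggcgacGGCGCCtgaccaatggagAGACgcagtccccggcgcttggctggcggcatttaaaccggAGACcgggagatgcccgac
GGCGCC was found 1 time in Id2, 1 time in Grem1 and 0 times in Id3, and the letters GTCT or AGAC were found 2 times in Id3, 1 time in Id2 and 4 times in Grem1. Among 32851 promoter stretches of the same length, 9.59% held GGCGCC and 82.9% held GTCT on either strand.

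Cells fell into 20 clusters, which were named by marker genes: osteoprogenitor-like (1 cluster, 700 cells), pre-osteoblast 1-like (416 cells), osteoblast/osteocyte-like (2 clusters), macrophage-like and cycling-like, among others. All 8 genes were among the 3000 variable genes behind the clusters, so differences between classes are given as descriptions with no test. Levels are compared within a gene and not between genes. A further 4 clusters carried macrophage markers but had other leading genes and stayed unnamed. Of tagged cells, 3647 in Dmp1KO, 45 in WT, 141 in Fgf23cKO and 153 in Dmp1KO/Fgf23cKO lay in these 4 clusters.

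Most UMIs of the ligands came from the pre-osteoblast 1-like and osteoblast/osteocyte-like classes. For Bmp4, 50.1% of all UMIs came from osteoblast/osteocyte-like cells and 44.8% from pre-osteoblast 1-like cells, which held 3.81% and 7.89% of the UMIs of all genes. Bmp4 stood at a median of 43.1 CPM in osteoblast/osteocyte-like cells (22.4 to 68.8 over 7 cultures with at least 10 such cells) and 9.39 CPM in pre-osteoblast 1-like cells (3.90 to 37.9 over 11 cultures), so the ranges overlapped. In macrophage-like cells it reached at most 0.208 CPM, with 11 UMIs in all. For Bmp2, 64.1% of all UMIs came from pre-osteoblast 1-like cells. Its median was 90.3 CPM there (15.8 to 183), 39.8 CPM in osteoblast/osteocyte-like cells (19.7 to 76.9) and 3.23 CPM in macrophage-like cells (1.18 to 19.4). The pre-osteoblast 1-like and osteoblast/osteocyte-like ranges of Bmp2 overlapped.

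Grem1 had its highest median in osteoprogenitor-like cells. Its median was 484 CPM in osteoprogenitor-like cells (62.1 to 1358), 69.7 CPM in pre-osteoblast 1-like cells (8.57 to 155), 0.961 CPM in macrophage-like cells (0.493 to 4.43) and 0.609 CPM in osteoblast/osteocyte-like cells (0 to 3.56). Osteoprogenitor-like cells held 35.9% of the Grem1 UMIs and 1.07% of the UMIs of all genes. Grem1 was itself the leading gene of that cluster, ahead of Mgp, S100b and the contractile gene Tagln, so the high level is part of how the cluster was found, and 697 of the 700 cells were in the osteoprogenitor-like class again when the 8 genes were left out of the clustering. With each cell thinned to 1300 UMIs, Grem1 was seen in 21.9% of osteoprogenitor-like cells (95% exact interval 17.4 to 26.9) and in 0.0922% of macrophage-like cells, and unthinned in 33.8% and 1.44%. The class had fewer UMIs per cell than most, with medians of 2188 in WT and 4738.5 in Fgf23cKO. All intervals cover counting error only.

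Bambi and Bmpr1a, the members that sit in the membrane, were highest in different classes. Bambi had its highest median, 190 CPM (99.9 to 299.9), in osteoblast/osteocyte-like cells, against 22.9 CPM (12.9 to 31.9) in pre-osteoblast 1-like cells and 11.5 CPM (9.04 to 16.9) in macrophage-like cells. Its osteoblast/osteocyte-like range lay above the other 2 ranges, which overlapped each other. Bmpr1a was highest in pre-osteoblast 1-like cells, at 104 CPM (78.7 to 127), and its osteoblast/osteocyte-like values of 56.2 CPM (49.6 to 78.6) lay just below that range. In macrophage-like cells Bmpr1a stood at 1.14 CPM (0.718 to 1.88).

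The ID targets were spread more widely. Id3 was highest in pre-osteoblast 1-like cells, with a median of 919 CPM (715 to 1177), and stood at 703 CPM (656 to 788) in osteoblast/osteocyte-like cells, 314 CPM (228 to 477) in macrophage-like cells and 97.8 CPM (55.0 to 611) in osteoprogenitor-like cells. Id2 went the other way, with 428 CPM (293 to 479) in macrophage-like cells and 60.7 CPM (37.4 to 134) in pre-osteoblast 1-like cells. Macrophage-like cells held 53.0% of the Id2 UMIs and 38.7% of the UMIs of all genes, and pre-osteoblast 1-like cells 1.75% and 7.89%. The unnamed clusters with macrophage markers held 28.3% and 31.5%. Id1 did not order the classes, with overlapping ranges in pre-osteoblast 1-like cells (33.4 to 128 CPM), macrophage-like cells (44.3 to 168 CPM) and cycling-like cells (15.4 to 253 CPM).

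**Figure D1:**
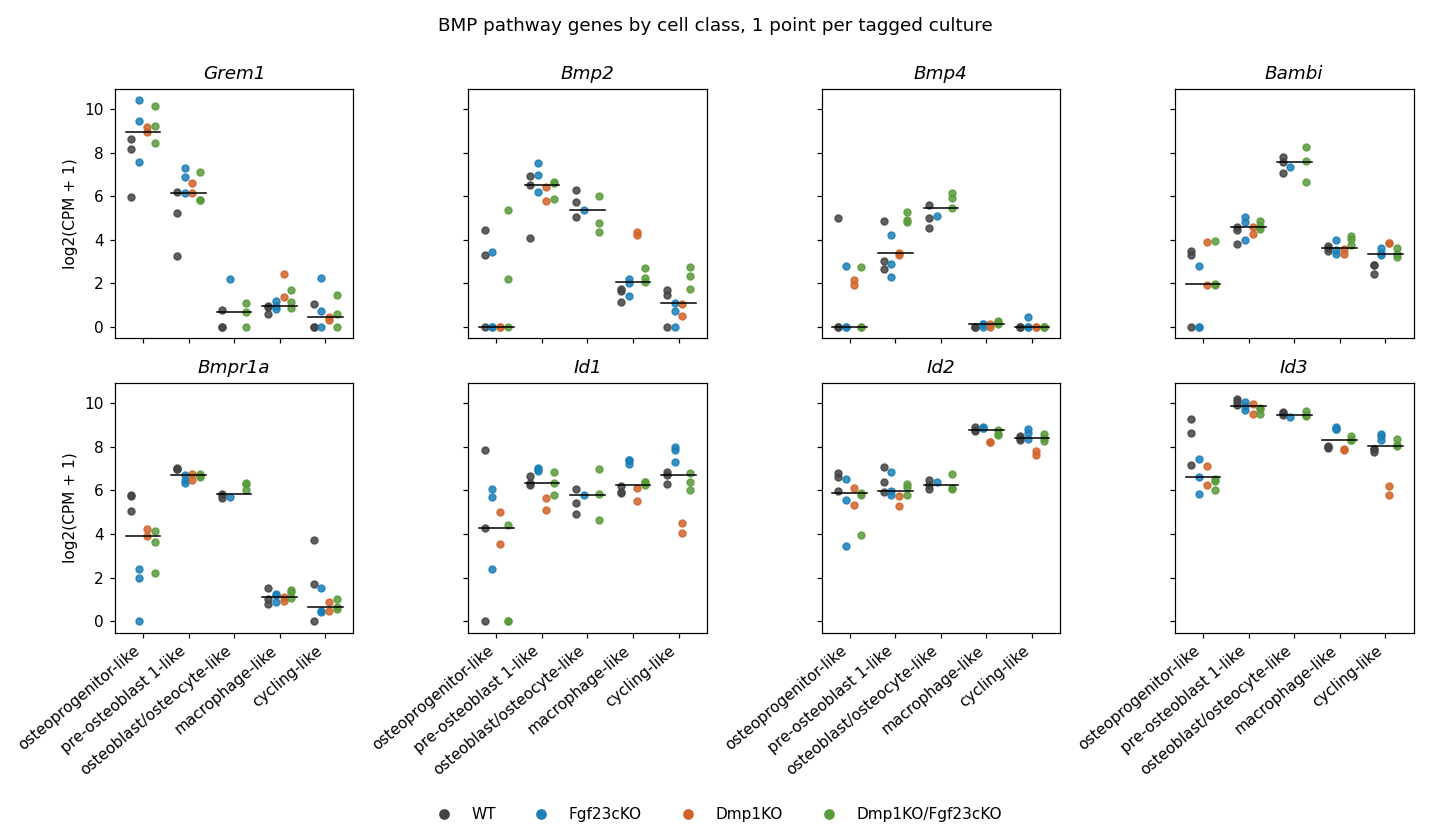
Level of each of the 8 genes as log2(CPM + 1) in 5 cell classes, with 1 point per tagged culture of at least 10 such cells, coloured by genotype, and a bar at the median. Grem1 falls from osteoprogenitor-like (median 484 CPM) to osteoblast/osteocyte-like cells (0.609 CPM), Bmp4 and Bambi are highest in osteoblast/osteocyte-like cells, and Id2 is highest in macrophage-like cells.

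Genes whose pattern was most like that of each member were taken over 65 sums of cultures and classes, 7 classes in all, among 8926 genes. The sums share cultures and classes, so the coefficients are descriptions. Grem1 was followed most closely by Trnp1, Dynlt3 and Cnn1, a smooth muscle calponin (Pearson r 0.945, 0.938 and 0.938). Bmp2 went with the transcription factors Runx3 (0.869) and Dlx5 (0.862), Bmp4 with Sema5a (0.958), Bmpr1a with Afap1 (0.964) and Bambi with Selenos (0.833). Id2 went with the lysosomal glycoprotein gene Creg1 (0.946), Id1 with Gm49336 (0.760), and Id3 with Smad6, the inhibitory SMAD that is itself a BMP target (0.886). Among the 8 genes themselves, Bmp4 and Bmpr1a were the most alike (r = 0.844), Bmp2 and Id3 gave 0.724, Id1 and Id3 gave 0.596, and Grem1 and Id2 ran opposite (-0.716).

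For genotype comparisons, UMIs were summed per tagged culture and class and fitted with the edgeR quasi-likelihood test, with Benjamini-Hochberg adjustment over all genes tested and a threshold of 0.1. Errors of log2 fold changes are standard errors (SE). The labels number the cultures within a genotype and the study describes them as separate cultures, and p-values cover the spread between these cultures.

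Over all cells of a culture, Id1, Id3 and Bmp4 were lower in Dmp1KO than in WT and higher in Dmp1KO/Fgf23cKO than in Dmp1KO, and Grem1 was higher than WT in Fgf23cKO and Dmp1KO/Fgf23cKO. In Fgf23cKO against WT, 3 of the 8 genes passed the threshold, while 45.1% of the 15502 genes tested did. The corresponding counts were 5 of 8 in Dmp1KO against WT (64.5% of all genes), 4 of 8 in Dmp1KO/Fgf23cKO against WT (51.8%), 5 of 8 in Dmp1KO/Fgf23cKO against Dmp1KO (62.7%) and 2 of 8 in Dmp1KO/Fgf23cKO against Fgf23cKO (23%). The counts therefore say little about these 8 genes, and the sizes and directions follow. Sums over a whole culture change with its cell makeup, and fewer cells of a type and less RNA per cell cannot be told apart in them.

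Id1 stood at 70.6, 73.3 and 62.5 CPM in WT cultures, 147, 126 and 149 in Fgf23cKO, 13.5 and 19.7 in Dmp1KO and 78.6, 66.6 and 76.3 in Dmp1KO/Fgf23cKO. Every Fgf23cKO culture lay above every other culture, both Dmp1KO cultures lay below, and WT and Dmp1KO/Fgf23cKO overlapped. The log2 fold change against WT was 0.99 ± 0.12 in Fgf23cKO (adjusted p = 0.00018) and -1.75 ± 0.14 in Dmp1KO (adjusted p = 3.3e-06), and Dmp1KO/Fgf23cKO was 1.79 ± 0.14 above Dmp1KO (adjusted p = 4.6e-06) and 0.95 ± 0.12 on the log2 scale below Fgf23cKO (log2 fold change -0.95, adjusted p = 0.0014).

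Id3 followed the same order, at 327, 291 and 335 CPM in WT, 479, 499 and 473 in Fgf23cKO, 103 and 129 in Dmp1KO and 362, 393 and 410 in Dmp1KO/Fgf23cKO. None of these 4 groups overlapped. Id3 rose in Fgf23cKO against WT (log2 fold change 0.56 ± 0.08, adjusted p = 0.00033), fell in Dmp1KO (-1.16 ± 0.09, adjusted p = 2.2e-06) and was higher in Dmp1KO/Fgf23cKO than in Dmp1KO (1.39 ± 0.09, adjusted p = 1.5e-06). Its difference between Dmp1KO/Fgf23cKO and WT was small (0.23 ± 0.08, adjusted p = 0.032) and was not called without WT culture 2, without Dmp1KO/Fgf23cKO culture 3, with the untagged samples included or with cells thinned to 1300 UMIs. Id2 moved least, at 357, 382 and 338 CPM in WT, 350, 365 and 399 in Fgf23cKO, 238 and 226 in Dmp1KO and 323, 296 and 356 in Dmp1KO/Fgf23cKO. Both Dmp1KO cultures were below all others (log2 fold change against WT -0.32 ± 0.09, adjusted p = 0.011), a call that was lost without Dmp1KO culture 3.

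Grem1 stood at 7.88, 4.02 and 5.24 CPM in WT, 32.6, 9.16 and 28.7 in Fgf23cKO, 4.26 and 7.44 in Dmp1KO and 16.3, 14.4 and 23.8 in Dmp1KO/Fgf23cKO. All 6 tagged cultures with the Cre transgene lay above the 5 tagged cultures without it, but the untagged samples did not keep this order. They stood at 4.77 CPM in WT, 47.0 CPM in Fgf23cKO, 26.0 CPM in Dmp1KO and 10.6 CPM in Dmp1KO/Fgf23cKO. Osteoprogenitor-like and pre-osteoblast 1-like cells held 35.9% and 54.4% of the Grem1 UMIs. These classes counted 76 and 94 of 4955 tagged cells in WT and 106 and 76 of 5601 in Dmp1KO. In Fgf23cKO they counted 58 and 48 of 1611, and in Dmp1KO/Fgf23cKO 130 and 80 of 2410. The part of cell numbers in the Grem1 order was not tested. Grem1 rose in Fgf23cKO (log2 fold change 2.04 ± 0.46, adjusted p = 0.0059) and in Dmp1KO/Fgf23cKO against WT (1.64 ± 0.46, adjusted p = 0.014), and these calls held under every alternative tried. Dmp1KO also passed against WT with the untagged samples included (1.35 ± 0.60, adjusted p = 0.068) and with cells thinned to 1300 UMIs (1.43 ± 0.54, adjusted p = 0.035). Against Dmp1KO, Dmp1KO/Fgf23cKO was 1.27 ± 0.47 higher (adjusted p = 0.040), which was not called without Dmp1KO culture 2 or Dmp1KO/Fgf23cKO culture 3 and fell to 0.18 ± 0.55 (adjusted p = 0.81) with the untagged samples. Cells over the limit of 20% mitochondrial UMIs made up 12.2 to 16.6% of each tagged culture with Cre and 3.4 to 7.28% of those without it. With only cells under that limit and of at least 500 genes, the Grem1 values were 2.05 in Fgf23cKO and 1.63 in Dmp1KO/Fgf23cKO against WT.

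The ligand Bmp4 was at 2.42, 1.48 and 4.14 CPM in WT, 0.248 and 0.524 CPM in Dmp1KO (18 and 33 UMIs) and 5.88, 7.21 and 7.32 CPM in Dmp1KO/Fgf23cKO, with no overlap among these groups, while Fgf23cKO cultures (5.12, 2.93 and 1.74) overlapped WT. Bmp4 fell in Dmp1KO (log2 fold change -2.51 ± 0.54, adjusted p = 0.0027) and was 3.78 ± 0.54 higher in Dmp1KO/Fgf23cKO than in Dmp1KO (adjusted p = 0.00021). Beside this, the osteoblast/osteocyte-like class, its main source, counted 119 tagged cells in WT, 29 in Fgf23cKO, 10 in Dmp1KO and 66 in Dmp1KO/Fgf23cKO, and the part of cell numbers in the difference was not tested. The call for Bmp4 in Dmp1KO/Fgf23cKO against WT (1.27 ± 0.42, adjusted p = 0.034) was lost without WT culture 2 and with the untagged samples. Bmpr1a fell in Dmp1KO to 3.39 and 5.39 CPM, from 16.9, 7.23 and 14.1 CPM in WT (log2 fold change -1.22 ± 0.31, adjusted p = 0.0068), and stood at 14.6, 17.7 and 16.7 CPM in Dmp1KO/Fgf23cKO (1.54 ± 0.31 above Dmp1KO, adjusted p = 0.0017). The Bmpr1a call in Dmp1KO against WT was lost with the untagged samples (-0.77, adjusted p = 0.15) and the second with cells thinned to 1300 UMIs (0.52, adjusted p = 0.45). Bmp2 and Bambi passed in none of the whole-culture comparisons, and the Bmp2 difference between Fgf23cKO and WT was 0.94 ± 0.56 (log2, adjusted p = 0.21).

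**Figure D2:**
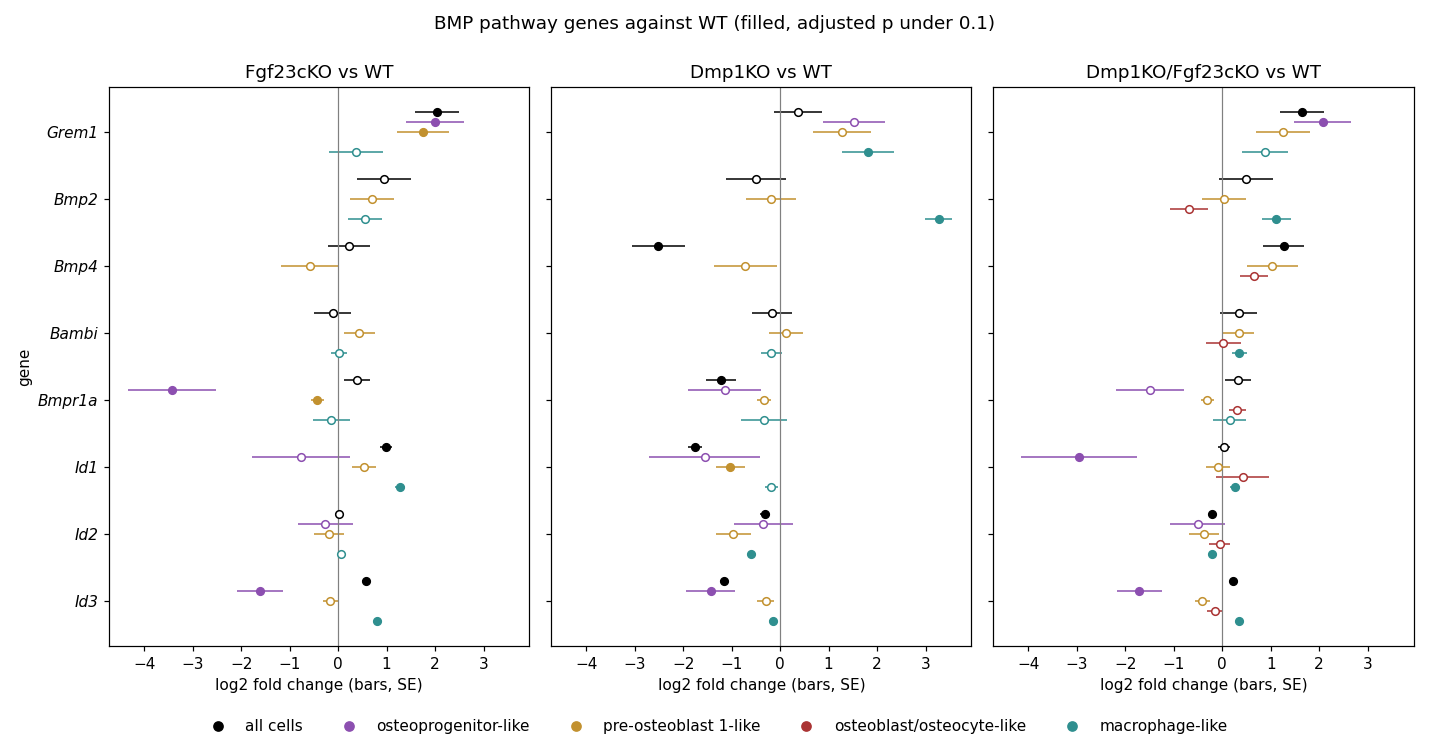
Log2 fold change of each gene against WT in Fgf23cKO, Dmp1KO and Dmp1KO/Fgf23cKO, for all cells and 4 cell classes, with bars of 1 SE and filled points for an adjusted p under 0.1. Grem1 lies to the right of 0 in osteoprogenitor-like cells of all 3 genotypes and is filled in Fgf23cKO (2.0) and Dmp1KO/Fgf23cKO (2.07), and Bmp2 reaches 3.27 in Dmp1KO macrophage-like cells.

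In osteoprogenitor-like cells, Grem1 was higher in Fgf23cKO and Dmp1KO/Fgf23cKO than in WT, and Id3 was lower in all 3 mutant genotypes than in WT. Of the 5 genes with enough counts to test, 3 passed in Fgf23cKO against WT (18.1% of 4911 genes did), 1 in Dmp1KO (14.6%) and 3 in Dmp1KO/Fgf23cKO (33.4%). None of the 5 passed in Dmp1KO/Fgf23cKO against Dmp1KO (3.85% of all genes) or against Fgf23cKO (1.28%), and none in the test of whether the effect of Fgf23 deletion plus Dmp1 loss differed from the sum of both (interaction, 4.4%), where 0, 0 and 1 had an unadjusted p under 0.05 and DESeq2 called 0. Bmp2, Bmp4 and Bambi had 0 to 15 UMIs per genotype and were not tested.

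Grem1 in these cells was at 62.1, 285 and 388 CPM in WT (67 UMIs in all), 696, 191 and 1358 CPM in Fgf23cKO, 484 and 571 CPM in Dmp1KO and 348, 593 and 1130 CPM in Dmp1KO/Fgf23cKO. The WT range overlapped those of Fgf23cKO and Dmp1KO/Fgf23cKO but not that of Dmp1KO. The log2 fold change against WT was 2.0 ± 0.60 in Fgf23cKO (adjusted p = 0.040), 1.52 ± 0.64 in Dmp1KO (adjusted p = 0.15) and 2.07 ± 0.60 in Dmp1KO/Fgf23cKO (adjusted p = 0.020). With cells thinned to 1300 UMIs both calls were lost, at 1.0 (adjusted p = 0.40) in Fgf23cKO and 0.54 (adjusted p = 0.59) in Dmp1KO/Fgf23cKO. The Fgf23cKO call was also lost in DESeq2 (adjusted p = 0.15) and without WT culture 1, WT culture 2 or Fgf23cKO culture 3. Each culture gave 18 to 65 such cells.

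Id3 in osteoprogenitor-like cells was at 611, 143 and 388 CPM in WT, 97.8, 171 and 55.0 in Fgf23cKO, 74.2 and 138 in Dmp1KO and 89.2, 63.8 and 85.5 in Dmp1KO/Fgf23cKO. All Dmp1KO and Dmp1KO/Fgf23cKO cultures lay below all WT cultures, and 1 Fgf23cKO culture lay within the WT range. Id3 fell by 1.61 ± 0.47 on the log2 scale in Fgf23cKO (adjusted p = 0.037), by 1.44 ± 0.51 in Dmp1KO (adjusted p = 0.085) and by 1.71 ± 0.46 in Dmp1KO/Fgf23cKO (adjusted p = 0.013), and only the last was called under every alternative. The Fgf23cKO call was lost without WT culture 1 or Fgf23cKO culture 3, and the Dmp1KO call without any of WT cultures 1 and 3 and Dmp1KO cultures 2 and 3. Both were lost with the untagged samples and with cells thinned to 1300 UMIs, and the Dmp1KO call also with the replicate block (-1.2, adjusted p = 0.20) and with clustering that left out the 8 genes. Beside these values, the summed level of 14 macrophage markers in the class was 6696 to 18505 CPM in WT, 2167 to 9478 in Fgf23cKO, 4324 to 10668 in Dmp1KO and 2072 to 6938 in Dmp1KO/Fgf23cKO, against 34497 to 45495 CPM in macrophage-like cells, with 13 or 14 of the markers seen in each genotype. The summed level of 11 pre-osteoblast markers was 2297 to 3242 CPM in WT and 371 to 1108 CPM in the mutants. Their part in the Id3 difference was not tested.

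Bmpr1a rested on few counts in these cells, with 13 UMIs in WT and 2 in Fgf23cKO, a ratio of 0.0618 of Fgf23cKO over WT (95% counting interval 0.0068 to 0.273). Its fitted log2 fold change was -3.43 ± 0.90 (adjusted p = 0.021), and Dmp1KO and Dmp1KO/Fgf23cKO held 10 and 11 UMIs. Id1 had 22, 0 and 2 UMIs in the WT cultures and 7, 0 and 0 in Dmp1KO/Fgf23cKO, and the call there (-2.95 ± 1.2, adjusted p = 0.081) was lost without WT culture 1 (-0.12) and without Dmp1KO/Fgf23cKO culture 2 (-2.3) or 3 (-2.44). It was also lost in DESeq2, with the stricter cell filter and with clustering that left out the 8 genes.

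**Figure D3:**
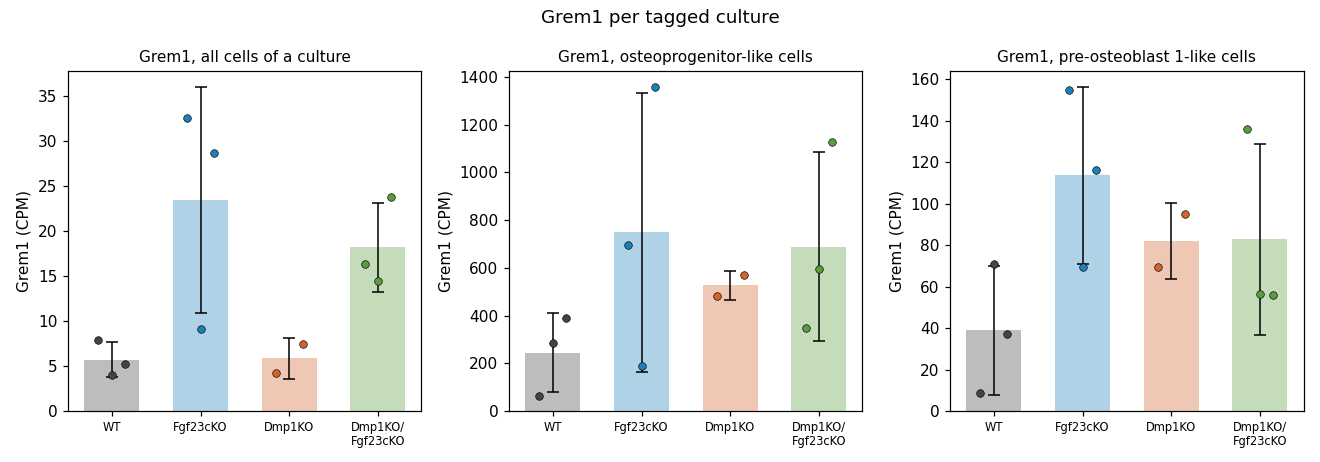
Grem1 in CPM per tagged culture, over all cells, in osteoprogenitor-like cells and in pre-osteoblast 1-like cells, with bars at the group mean and error bars of 1 SD (n = 3 cultures, 2 in Dmp1KO). Over all cells the Fgf23cKO and Dmp1KO/Fgf23cKO cultures (9.16 to 32.6) sit above WT and Dmp1KO (4.02 to 7.88), in osteoprogenitor-like cells the WT points overlap those of Fgf23cKO and Dmp1KO/Fgf23cKO but not those of Dmp1KO, and in pre-osteoblast 1-like cells WT and Fgf23cKO overlap.

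In pre-osteoblast 1-like cells, which had the highest medians of Bmp2, Bmpr1a and Id3, calls for the 8 genes came only against WT. The counts of calls say little about the 8 genes as a set. In Fgf23cKO against WT, 2 of 8 passed (11.4% of 11663 genes did), 1 passed in Dmp1KO (12%) and 0 in Dmp1KO/Fgf23cKO (15.4%). Against Dmp1KO, against Fgf23cKO and in the interaction, 0 of 8 passed, with 0.574%, 1.27% and 5.2% of all genes called. In these 4 comparisons without a call, 2 to 3 of the 8 genes had an unadjusted p under 0.05, and DESeq2 called 0 or 1. Grem1 stood at 8.57, 71.0 and 37.0 CPM in WT and 155, 69.7 and 116 CPM in Fgf23cKO, which overlapped (log2 fold change 1.75 ± 0.54, adjusted p = 0.078). Bmpr1a was at 127, 126 and 123 CPM in WT and 104, 86.7 and 78.7 CPM in Fgf23cKO, a small difference without overlap (-0.43 ± 0.14, adjusted p = 0.084). Id1 was at 80.0, 73.6 and 101 CPM in WT and 33.4 and 48.8 CPM in Dmp1KO, also without overlap (-1.03 ± 0.30, adjusted p = 0.056).

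Each of these 3 calls was lost when 1 of several cultures was left out, WT culture 3 among them in each case, and none passed a threshold of 0.05. The Grem1 and Bmpr1a calls were also lost in DESeq2 and with the replicate block (adjusted p = 0.103 and 0.108), and the Id1 call with the untagged samples (-0.53, adjusted p = 0.29). Each culture gave 14 to 43 such cells. Bmp4 in these cells was at 9.39 and 8.83 CPM in Dmp1KO and 29.2, 27.5 and 37.9 CPM in Dmp1KO/Fgf23cKO, without overlap, but the log2 fold change of 1.75 ± 0.54 did not pass (adjusted p = 0.20). Id3 stayed between 715 and 1177 CPM in every culture and passed in no comparison in edgeR. Its Dmp1KO/Fgf23cKO cultures (715, 865 and 854 CPM) lay below all WT cultures (953, 1177 and 1103 CPM). DESeq2 called that difference (log2 fold change -0.43, adjusted p = 0.075).

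In osteoblast/osteocyte-like cells, which had enough cultures only in WT and Dmp1KO/Fgf23cKO, none of the 7 genes tested passed, while 11.9% of 8692 genes did in edgeR. DESeq2 called 0 of them, and 1 of the 7, Bmp4, had an unadjusted p under 0.05 in edgeR. Bmp4 stood at 22.4, 47.6 and 31.4 CPM in WT and 68.8, 43.1 and 59.0 CPM in Dmp1KO/Fgf23cKO, and these ranges overlapped (log2 fold change 0.65 ± 0.29, adjusted p = 0.22). Bambi was at 135, 190 and 218 CPM in WT and 99.9, 299.9 and 197 CPM in Dmp1KO/Fgf23cKO (log2 fold change 0.02 ± 0.36, adjusted p = 0.99). Id3 was at 703, 766 and 751 CPM in WT and 681, 693 and 788 CPM in Dmp1KO/Fgf23cKO (log2 fold change -0.16 ± 0.15, adjusted p = 0.58). Bmpr1a was the gene whose cultures stood apart, at 49.6, 56.2 and 54.3 CPM in WT and 78.6, 63.5 and 76.3 CPM in Dmp1KO/Fgf23cKO, without passing the test (0.31 ± 0.18, adjusted p = 0.35).

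Macrophage-like cells gave the smallest adjusted p-values for the ID genes, though not the largest fold changes. Of 7 genes tested, 2 passed in Fgf23cKO against WT (48.9% of 12809 genes did), 4 in Dmp1KO (51.3%), 5 in Dmp1KO/Fgf23cKO (57.6%), 5 in Dmp1KO/Fgf23cKO against Dmp1KO (24.1%) and 3 in Dmp1KO/Fgf23cKO against Fgf23cKO (26.9%). WT cells of this class lay mostly in cluster 0 and those of the other genotypes mostly in cluster 1, while cluster 2 held cells of every genotype, so values in cluster 2 alone are given too. Of the Dmp1KO cells with macrophage markers, 875 were macrophage-like and 3647 lay in the 4 unnamed clusters, so values over all of these clusters stand beside them.

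Id1 in macrophage-like cells was at 58.0, 72.9 and 60.0 CPM in WT, 168, 144 and 164 in Fgf23cKO, 44.3 and 68.7 in Dmp1KO and 82.2, 82.9 and 74.4 in Dmp1KO/Fgf23cKO. The Fgf23cKO cultures were above all others by a wide margin, and WT and Dmp1KO overlapped. Id1 rose in Fgf23cKO against WT (log2 fold change 1.27 ± 0.11, adjusted p = 4.0e-08) and was lower in Dmp1KO/Fgf23cKO than in Fgf23cKO (-1.0 ± 0.10, adjusted p = 1.6e-06), and both calls held under every alternative. Its differences between Dmp1KO/Fgf23cKO and WT (0.27 ± 0.11, adjusted p = 0.043) and between Dmp1KO/Fgf23cKO and Dmp1KO (0.45 ± 0.13, adjusted p = 0.018) were small, the first lost without any of WT cultures 1 and 3 and Dmp1KO/Fgf23cKO cultures 1 and 2 and the second without Dmp1KO culture 2. With cells thinned to 1300 UMIs neither passed (0.08 and 0.25), and the first was also lost in DESeq2, at resolution 0.4 and over all clusters with macrophage markers, the second in cluster 2 alone. In cluster 2 alone Id1 was at 37.2, 37.3 and 25.4 CPM in WT and 150, 151 and 185 CPM in Fgf23cKO (log2 fold change 2.24). There Id1 was also called higher than WT in Dmp1KO/Fgf23cKO (1.14, adjusted p = 0.0011) and in Dmp1KO (0.78, adjusted p = 0.096). The 2 Dmp1KO cultures, at 33.6 and 88.9 CPM, overlapped WT.

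The share of macrophage-like cells with an Id1 UMI, each cell thinned to 1300 UMIs, was 6.97% in WT (95% exact interval 6.13 to 7.88), 17.0% in Fgf23cKO (14.5 to 19.8), 6.06% in Dmp1KO and 8.27% in Dmp1KO/Fgf23cKO, the same order as the CPM. Unthinned, the shares were 18.4%, 64.1%, 19.7% and 46.2%, at median depths of 7291, 35167, 15502 and 35057 UMIs per cell. Thinning left out 2 WT cells. For Id3 these shares were 21.7%, 39.8%, 17.6% and 29.2%, and for Id2 34.0%, 36.9%, 27.2% and 35.3%, where WT and Dmp1KO/Fgf23cKO stood in the opposite order to their CPM, so no order of these genotypes is read from the shares.

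Id3 was at 243, 264 and 252 CPM in WT, 440, 440 and 477 in Fgf23cKO, 228 and 235 in Dmp1KO and 319, 314 and 356 in Dmp1KO/Fgf23cKO, with no overlap between any of the groups. Id3 rose in Fgf23cKO (log2 fold change 0.81 ± 0.06, adjusted p = 4.2e-09) and in Dmp1KO/Fgf23cKO against WT (0.34 ± 0.06, adjusted p = 6.5e-05) and was higher in Dmp1KO/Fgf23cKO than in Dmp1KO (0.49 ± 0.06, adjusted p = 2.2e-05), in every alternative. Its small fall in Dmp1KO against WT (-0.16 ± 0.06, adjusted p = 0.055) was lost without any of WT cultures 2 and 3 and Dmp1KO cultures 2 and 3, with cells thinned to 1300 UMIs, with clustering that left out the 8 genes and in cluster 2 alone.

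Id2 was at 477, 432 and 414 CPM in WT, 466, 454 and 479 in Fgf23cKO, 297 and 293 in Dmp1KO and 368, 376 and 428 in Dmp1KO/Fgf23cKO. The Dmp1KO cultures were below all others, and the other groups overlapped their neighbours. Id2 fell in Dmp1KO (log2 fold change -0.61 ± 0.07, adjusted p = 1.0e-06) and less in Dmp1KO/Fgf23cKO against WT (-0.22 ± 0.06, adjusted p = 0.0040), and was 0.39 ± 0.07 higher in Dmp1KO/Fgf23cKO than in Dmp1KO (adjusted p = 0.00039). The Id2 difference between Dmp1KO/Fgf23cKO and WT was lost with cells thinned to 1300 UMIs (-0.16, adjusted p = 0.15) and was -0.01 at clustering resolution 0.4 (adjusted p = 0.90), and that between Dmp1KO/Fgf23cKO and Dmp1KO did not pass in cluster 2 alone (0.31, adjusted p = 0.15). In cluster 2 alone Id2 was also lower than WT in Fgf23cKO (-0.51), as well as in Dmp1KO (-0.96) and Dmp1KO/Fgf23cKO (-0.65).

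Bmp2 was the ligand seen in macrophage-like cells, and it rose in Dmp1KO. Its level was 2.15, 2.36 and 1.18 CPM in WT (51 UMIs), 1.66, 3.65 and 3.11 in Fgf23cKO (83 UMIs), 17.7 and 19.4 in Dmp1KO (270 UMIs) and 3.23, 5.62 and 3.80 in Dmp1KO/Fgf23cKO (227 UMIs). Both tagged Dmp1KO cultures lay far above the rest, but the untagged Dmp1KO sample did not. It stood at 2.46 CPM (2 UMIs in 48 cells), against 1.28 CPM in WT, 4.04 in Fgf23cKO and 1.54 in Dmp1KO/Fgf23cKO untagged samples. The log2 fold change against WT was 3.27 ± 0.28 in Dmp1KO (adjusted p = 5.1e-08) and 1.12 ± 0.30 in Dmp1KO/Fgf23cKO (adjusted p = 0.0047), and Dmp1KO/Fgf23cKO was lower than Dmp1KO (-2.15 ± 0.22, adjusted p = 2.1e-06). The Bmp2 call in Dmp1KO/Fgf23cKO against WT was lost with cells thinned to 1300 UMIs (1.06 ± 0.78, adjusted p = 0.35). With cells thinned to 1300 UMIs, 1.60% of Dmp1KO macrophage-like cells had a Bmp2 UMI (95% exact interval 0.88 to 2.67) against 0.238% in WT, and unthinned 8.57% against 1.22%. In cluster 2 alone, 13 UMIs were seen in Dmp1KO and 1 to 3 in each other genotype.

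Markers of the osteoprogenitor list, 10 genes in all, also summed to more in Dmp1KO macrophage-like cells, at 229 to 246 CPM against 113 to 139 in WT, 118 to 124 in Fgf23cKO and 110 to 136 in Dmp1KO/Fgf23cKO, with 9 or 10 of 10 markers seen in each genotype. The osteoblast list of 10 genes stood at 1687 to 1884 CPM in Dmp1KO and 1545 to 1718 CPM in WT. Bmp2 itself had 0 UMIs in osteoprogenitor-like cells of both tagged Dmp1KO cultures. In pre-osteoblast 1-like cells of these cultures it stood at 54.6 and 84.1 CPM. The part of such markers in the Bmp2 difference was not tested. Grem1 in macrophage-like cells, at 4.43 and 1.59 CPM in Dmp1KO and 0.493 to 0.961 CPM in WT, was called (log2 fold change 1.81 ± 0.54, adjusted p = 0.011) but not without Dmp1KO culture 2. Bambi differed by 0.35 ± 0.15 (log2) between Dmp1KO/Fgf23cKO and WT (adjusted p = 0.068), a call lost without WT culture 2 or Dmp1KO/Fgf23cKO cultures 2 or 3, in DESeq2, at resolution 0.4 and over all clusters with macrophage markers. Its difference between Dmp1KO/Fgf23cKO and Dmp1KO (0.53 ± 0.19, adjusted p = 0.062) was lost on leaving out either Dmp1KO culture or Dmp1KO/Fgf23cKO culture 2 or 3, with clustering that left out the 8 genes and in cluster 2 alone.

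**Figure D4:**
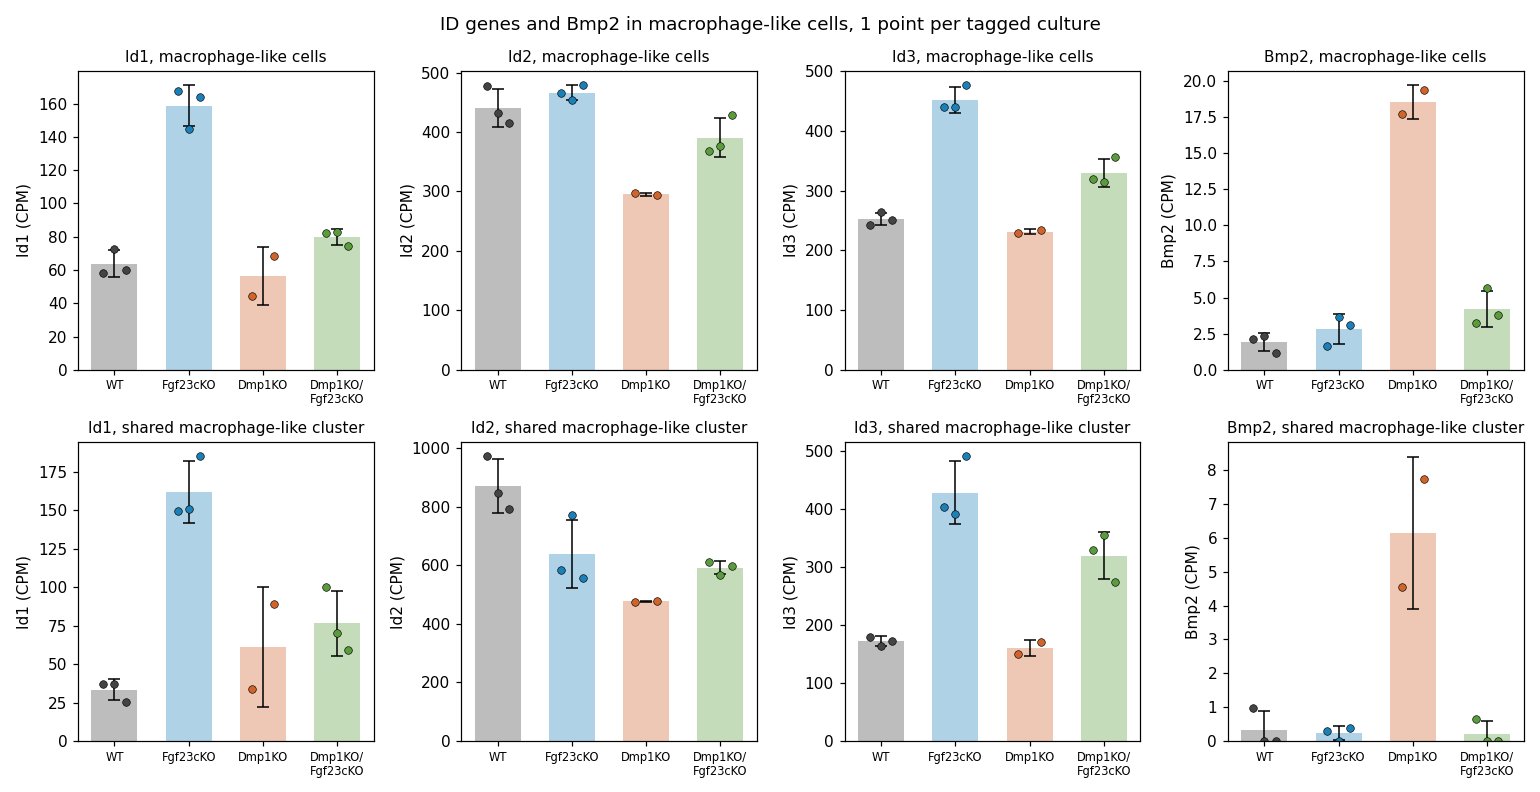
Id1, Id2, Id3 and Bmp2 in CPM per tagged culture in macrophage-like cells (upper row) and in cluster 2, which every genotype shared (lower row), with bars at the group mean and error bars of 1 SD (n = 3 cultures, 2 in Dmp1KO). Id1 and Id3 are highest in Fgf23cKO in both rows, and Bmp2 is highest in Dmp1KO (17.7 and 19.4 CPM in the upper row, 4.55 and 7.73 in the lower).

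Taken over all clusters with macrophage markers, an alternative chosen after seeing the data, Id1 was at 11.1 and 19.3 CPM in the Dmp1KO cultures, 57.5, 72.1 and 59.4 in WT, 155, 130.3 and 133 in Fgf23cKO and 78.2, 77.8 and 68.5 in Dmp1KO/Fgf23cKO. The Dmp1KO cultures then lay below all others (log2 fold change against WT -1.85 ± 0.17, adjusted p = 2.92e-07), which was not so in the macrophage-like class alone (-0.18 ± 0.13, adjusted p = 0.29). Id3 moved likewise, at 89.6 and 99.2 CPM in Dmp1KO against 245, 263 and 253 in WT (-1.2). Bmp2 in Dmp1KO was 1.09 ± 0.35 above WT on the log2 scale over all these clusters (adjusted p = 0.0142), and Dmp1KO/Fgf23cKO no longer passed against Dmp1KO (-0.16 ± 0.27, adjusted p = 0.63). For Id1, Dmp1KO/Fgf23cKO was 2.04 ± 0.16 above Dmp1KO on the log2 scale. The Grem1 difference between Dmp1KO and WT was 0.24 ± 0.44 (adjusted p = 0.66), and Bambi was lower in Dmp1KO/Fgf23cKO than in Dmp1KO (-0.32 ± 0.15, adjusted p = 0.078). In the Dmp1KO cultures 14.8% and 24.1% of the cells with macrophage markers were in the macrophage-like class, against 76.5 to 98.9% in the other cultures.

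**Figure D5:**
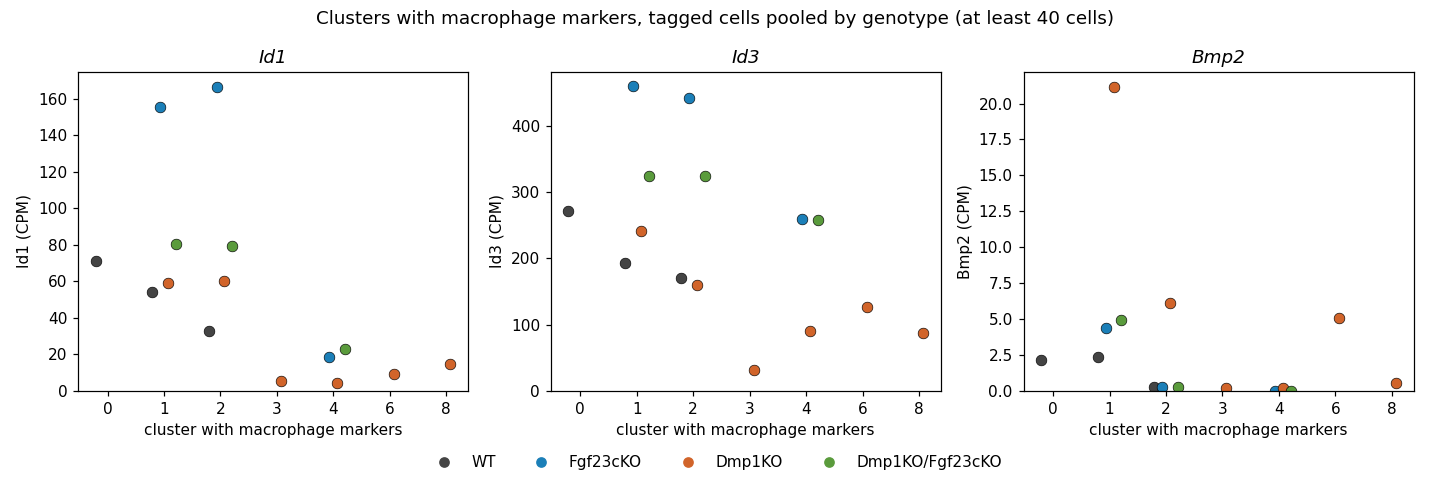
Id1, Id3 and Bmp2 in CPM in the 7 clusters of at least 100 cells with macrophage markers, tagged cells pooled by genotype, for points of at least 40 cells. Clusters 0, 1 and 2 are macrophage-like and 3, 4, 6 and 8 unnamed, with no error since each point pools cultures. Dmp1KO cells of clusters 3, 4, 6 and 8 sit at 4.34 to 15.0 CPM of Id1, below the 59.2 and 60.5 CPM of Dmp1KO cells in clusters 1 and 2.

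The effect of Fgf23 deletion together with Dmp1 loss was set against the sum of the separate effects by the interaction term, the log2 fold change of Dmp1KO/Fgf23cKO over Fgf23cKO less that of Dmp1KO over WT. In macrophage-like cells 4 of 7 genes passed (37.4% of all genes did) and over all cells 4 of 8 (55.4%). In macrophage-like cells the term was -0.82 ± 0.17 for Id1 (adjusted p = 0.0011), -0.31 ± 0.08 for Id3 (adjusted p = 0.0087), 0.33 ± 0.09 for Id2 (adjusted p = 0.0075) and -2.70 ± 0.41 for Bmp2 (adjusted p = 7.9e-05). Over all clusters with macrophage markers the Bmp2 term was -0.50 ± 0.49 and no longer called (adjusted p = 0.40), and those of Id1 and Id3 were 0.92 and 0.76. In cluster 2 alone the Id3 term did not pass (-0.26, adjusted p = 0.36). Over all cells it was 0.81 ± 0.18 for Id1 (adjusted p = 0.0042) and 0.82 ± 0.11 for Id3 (adjusted p = 0.00022), the opposite sign. Bmp4 (3.56 ± 0.68, adjusted p = 0.0016) and Bmpr1a (1.16 ± 0.40, adjusted p = 0.037, lost without Dmp1KO culture 2, with the untagged samples and with thinned cells) also passed over all cells.

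Of 64 other genes of the BMP pathway, 53 were tested over all cells. In Dmp1KO against WT, 29 were lower and 5 higher, while 32% of all genes were lower and 32.5% higher, and the median log2 fold change was -0.60 against -0.03 for all genes. In Dmp1KO/Fgf23cKO against Dmp1KO, 44 were higher and 4 lower (27.2% and 35.5% of all genes), with a median of 1.33 against -0.05. All 12 antagonists tested were higher in that comparison, among them Nog, which codes for the BMP antagonist noggin (log2 fold change 3.82 ± 0.78, adjusted p = 0.0020), and Nbl1 (1.33 ± 0.26, adjusted p = 0.0015). Among the SMADs and their regulators, 10 of 12 were higher, led by the inhibitory Smad6 (1.88 ± 0.15, adjusted p = 4.1e-06). Of 8 other ligands, 7 were higher, such as Gdf11 (1.98 ± 0.28, adjusted p = 0.00023). Acvrl1, a type I receptor for BMP9 best known from endothelium, was lower (-1.09 ± 0.08, adjusted p = 4.1e-06). These sums also change with the number of stromal cells in a culture. Within classes the same comparison gave fewer calls. In pre-osteoblast 1-like cells 2 of 47 genes were higher and 0 lower, with a median of 0.19 (0.574% of all genes were called). In osteoprogenitor-like cells 1 of 23 was higher and 0 lower, with a median of 0.53 (3.85%). In macrophage-like cells 1 of 29 was higher and 4 lower, with a median of 0.015 (24.1%).

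In macrophage-like cells 29 of the 64 genes were tested, and in Dmp1KO against WT 13 were higher and 2 lower (26.2% and 25.1% of all genes). The inhibitory Smad7 was higher than WT in Fgf23cKO (log2 fold change 1.38 ± 0.08, adjusted p = 5.3e-10), Dmp1KO (0.72 ± 0.10, adjusted p = 1.4e-05) and Dmp1KO/Fgf23cKO (0.91 ± 0.08, adjusted p = 3.7e-08). Smad6 rose likewise, by 1.27 ± 0.11, 0.83 ± 0.14 and 0.77 ± 0.11 on the log2 scale, and so did Ski, a SMAD corepressor gene, by 0.42, 0.44 and 0.40. In Dmp1KO, Smad6 was thus called higher while Id2 was called lower and Id1 was not called in this class as a whole.

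In the stromal classes the activin subunit gene Inhba was higher than WT in pre-osteoblast 1-like cells of all 3 mutant genotypes (1.13 ± 0.17 in Fgf23cKO, 0.97 ± 0.18 in Dmp1KO and 1.06 ± 0.16 in Dmp1KO/Fgf23cKO on the log2 scale, adjusted p = 0.0030, 0.0093 and 0.0028). Inhba was also higher in osteoprogenitor-like cells of Fgf23cKO (1.42 ± 0.32) and Dmp1KO/Fgf23cKO (1.94 ± 0.32), where most calls of the pathway genes went the other way. Of 23 genes tested there, 1 was higher and 5 lower than WT in Fgf23cKO (18.1% of all genes were called). In Dmp1KO 0 were higher and 6 lower (14.6%), and in Dmp1KO/Fgf23cKO 2 were higher and 7 lower (33.4%). Fstl1, a follistatin-like secreted protein gene, was lower than WT in pre-osteoblast 1-like cells of all 3 (-0.82, -1.25 and -0.70). In pre-osteoblast 1-like cells of Dmp1KO, 9 of 47 genes tested were lower and 2 higher (6.01% and 5.98% of all genes). Among the lower was Sp7, which codes for the osteoblast transcription factor osterix (-1.02 ± 0.19, adjusted p = 0.0099). In osteoblast/osteocyte-like cells of Dmp1KO/Fgf23cKO, 2 of 37 were higher than WT and 4 lower (5.56% and 6.37% of all genes). The higher genes were Smad6 (1.25 ± 0.32, adjusted p = 0.040) and Htra1, and the lower included Fst (-1.18 ± 0.33, adjusted p = 0.059) and Dlx3 (-0.79 ± 0.19, adjusted p = 0.036).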

How the data were processed

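Per the labels and file headers, the authors ran 10x 3' single-cell RNA-Seq with CellPlex tags, 1 reaction per genotype, and Cell Ranger 7.0.1. Per the labels, Seurat and the mm10 build were also used. The deposited values are raw counts of UMIs per gene and cell, not normalized, with 12 tag features, which were kept out of totals. The counts of the first Dmp1KO culture were not used here. Promoter coordinates are those of RefSeq, and gene spans are from GENCODE M21 (GRCm38). The printed Id3 and Id2 stretches lie within the gene spans (chr4:136143497-136145755 and chr12:25093799-25097140), and that of Grem1 lies outside its span. Counting by 3' tags, depth and reaction all bear on rarely seen genes such as Bmp4.

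All cells were clustered with Seurat 5.3.0 and sctransform 0.4.2 in R 4.3.3 (mitochondrial share regressed out, 30 principal components, resolution 0.8) and named from 19 marker lists. No doublet caller was used, and multiplets between cultures had been removed by tag. UMIs were summed per tagged culture and class (at least 10 cells, at least 2 sums per genotype) and fitted with edgeR 4.0.16 (TMM, filterByExpr, quasi-likelihood test, Benjamini-Hochberg adjustment over all genes tested, threshold 0.1), which was tested on simulated data. CPM are UMIs per 1000000 UMIs of the sum. Other pathway genes were named by role, at most 3 per role and class, by smallest adjusted p, and genes of like pattern were those with the 3 highest correlations of log2(CPM + 1). The 8 genes, the lists and the tests were chosen with earlier results of these data known. Alternatives were DESeq2 1.42.0, no filter on low counts, thresholds and cell minimums, cells thinned to 1300 UMIs, cell filters, other clusterings, untagged cells included and each culture left out. Replicate numbers did not pair cultures: over 15 same-numbered pairs the correlation of deviations ran from -0.273 to 0.274, and 4 were above 0.1.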

Additional observations from a re-analysis of the deposited data

Results flagged for a closer look

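In 8 results the effect of losing both genes differed from the sum of the effects of losing each, by the interaction term of the edgeR fit (log2 scale). Over all cells of a culture the term was 3.56 for Bmp4, 1.16 for Bmpr1a, 0.81 for Id1 and 0.82 for Id3. In macrophage-like cells it was -2.7 for Bmp2, -0.82 for Id1, 0.33 for Id2 and -0.31 for Id3. The term passed for 55.4% of all genes over all cells and for 37.4% in macrophage-like cells, so the count says little about these genes. The Bmpr1a term was lost without Dmp1KO culture 2, with the untagged samples and with thinned cells. In cluster 2 alone the Id3 term did not pass (-0.26, adjusted p = 0.36). Over all clusters with macrophage markers the terms of Id1 and Id3 had the opposite sign, 0.92 and 0.76, and that of Bmp2 was -0.50 and no longer called (adjusted p = 0.40). Genotype and 10x reaction cannot be told apart in these terms.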

How the results depend on the processing

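Of 56 calls for the 8 genes, 26 were made in the same direction under every alternative. Of 1245 refits of these calls, 1121 stayed past the threshold, 121 did not and 3 reversed. The 3 reversals came over all clusters with macrophage markers: Bambi in Dmp1KO/Fgf23cKO against Dmp1KO (-0.32), and the interaction terms of Id1 (0.92) and Id3 (0.76). Counts of calls over the 5 comparisons were 19 in all cells (17 to 21 with 1 culture left out), 7 in osteoprogenitor-like cells (2 to 8), 3 in pre-osteoblast 1-like cells (0 to 3), 0 in osteoblast/osteocyte-like cells (0 to 1) and 19 in macrophage-like cells (15 to 21). The lowest count in osteoprogenitor-like cells, 2, came without WT culture 1. Osteoprogenitor-like cells gave 4 calls with untagged samples and 1 with thinned cells. Pre-osteoblast 1-like cells gave 15 without the filter on low counts, 0 at a threshold of 0.05, 1 with the replicate block, 7 with untagged samples and 0 with thinned cells, and at resolution 0.4 no such class was found. Osteoblast/osteocyte-like cells gave 1 without the filter, 1 with clustering that left out the 8 genes and 6 at resolution 0.4, and macrophage-like cells 10 with thinned cells. At resolution 0.4 the osteoblast/osteocyte-like name also covered a cluster of 575 cells led by Ebf1, with Pappa among its leading genes. All genotypes were tested there, so those 6 calls cover other cells and comparisons. Interaction calls moved to 2 in osteoprogenitor-like cells without the filter, to 3 without the filter and 2 with untagged samples in pre-osteoblast 1-like cells (0 to 1 with 1 culture left out), and to 2 in the shared macrophage-like cluster. The replicate block gave 19, 7, 1, 0 and 22 calls in the 5 classes, and the cultures share only a number. DESeq2 gave 21, 5, 4, 0 and 17. With thinned cells, median levels moved for Bambi (0 CPM) and Bmpr1a (69.9) in pre-osteoblast 1-like cells, for Bmp4 (24.6), Bmpr1a (29.0), Id1 (18.3), Id2 (91.6) and Id3 (548) in osteoblast/osteocyte-like cells and for Bmp4 (0) in macrophage-like cells. The causes were not tested. Where 1 Dmp1KO culture was left out, the other was assumed to vary like the other groups. Depth limits Bmp2, Bmp4 and Bambi in osteoprogenitor-like cells, and Bmp4 outside the osteoblast lineage.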
